A study of Mus musculus with 6 samples.

Results

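The genes described here were 10 members of the NF-κB system. These were the subunit genes Nfkb1, Nfkb2, Rela, Relb and Rel, the IκB family genes Nfkbia, Nfkbib, Nfkbie and Nfkbiz, and Tnfaip3. They were chosen by name, as the table rows whose Ensembl identifiers map to these symbols in the GENCODE mouse annotation, and made up 10 of the 56953 genes in the table and 10 of the 14096 genes tested. They were measured by bulk RNA sequencing of mouse embryonic fibroblasts (MEFs), cells of the connective tissue that are taken from embryos and kept in culture. Of the 6 libraries, 3 carried the label WT and 3 the label GαqKO. The study's methods describe the second line as lacking both Gαq and Gα11, the G protein subunits that couple many receptors to phospholipase C-β, and no other treatment separated the groups. Both kinds of cells came as lines from another laboratory, and the sources used here do not say how many embryos or clones each stands for.

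NF-κB proteins are dimers of the 5 subunits that bind κB sites in DNA. In resting cells IκB proteins hold them in the cytoplasm, and stimuli such as TNF, IL-1 and microbial products activate the IKK kinases, which mark IκB for degradation and release the dimers. Several of the genes they switch on encode their own inhibitors, among them IκBα (Nfkbia), IκBε (Nfkbie) and the ubiquitin-editing enzyme A20 (Tnfaip3), and this feedback ends the response. In fibroblasts the pathway drives chemokines, adhesion molecules and matrix proteases.

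The start regions of 4 members are printed to show where κB-type letters lay in genes that were lower (Tnfaip3, Rel), higher (Nfkb2) or not called (Nfkbia) in the libraries labelled GαqKO. RefSeq start windows of 300 bases, 250 before and 50 after the annotated start on GRCm38.p6, were found for 7 of the 10 members, and Nfkb1, Relb and Nfkbiz had no entry. Each line gives the 250 bases before the most upstream start, 5′ to 3′ along the gene, and capitals mark matches to GGNNNTTCC on either strand (GGAANNNCC on the other strand), a short core of the κB site.
Tnfaip3: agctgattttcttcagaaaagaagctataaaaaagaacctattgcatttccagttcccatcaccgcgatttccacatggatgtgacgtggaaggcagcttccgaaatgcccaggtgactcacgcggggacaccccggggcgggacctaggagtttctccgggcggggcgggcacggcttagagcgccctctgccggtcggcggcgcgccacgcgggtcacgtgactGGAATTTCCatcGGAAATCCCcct
Nfkbia: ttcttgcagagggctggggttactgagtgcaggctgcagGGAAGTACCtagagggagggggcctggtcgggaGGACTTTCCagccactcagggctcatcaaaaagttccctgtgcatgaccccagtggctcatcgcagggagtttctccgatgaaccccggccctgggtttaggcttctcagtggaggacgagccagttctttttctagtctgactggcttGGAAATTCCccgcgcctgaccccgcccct
Nfkb2: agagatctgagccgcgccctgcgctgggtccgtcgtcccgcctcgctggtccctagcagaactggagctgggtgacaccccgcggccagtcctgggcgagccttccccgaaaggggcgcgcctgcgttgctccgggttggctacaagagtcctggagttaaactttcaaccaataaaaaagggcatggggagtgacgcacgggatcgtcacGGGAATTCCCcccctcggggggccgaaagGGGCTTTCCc
Rel: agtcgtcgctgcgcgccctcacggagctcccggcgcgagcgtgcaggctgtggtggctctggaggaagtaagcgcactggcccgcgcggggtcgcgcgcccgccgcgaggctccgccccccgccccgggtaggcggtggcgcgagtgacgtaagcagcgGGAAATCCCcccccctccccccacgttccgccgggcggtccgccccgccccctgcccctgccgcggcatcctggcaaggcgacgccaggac
These stretches lie at chr10:19015411-19015660, minus strand, chr12:55492648-55492897, minus strand, chr19:46304487-46304736, plus strand, and chr11:23770970-23771219, minus strand, all on GRCm38.p6. In Tnfaip3 the matches lay at -24 to -16 and -12 to -4, counted from the start with -1 as the last base shown. Nfkbia held matches at -211 to -203, -178 to -170 and -29 to -21. The Nfkb2 stretch held a pair of overlapping matches from -39 to -30 and another at -10 to -2, and Rel held 1 match at -91 to -83. Nfkbie also had matches in its window, at -105 to -97 and -76 to -68, whereas the windows of Rela and Nfkbib had none. The core was therefore found in 5 of the 7 windows, those of members that were higher, lower and not called alike, and in 18.5% of all 32851 start windows. The longer κB consensus, which overlapped a core match in each of those 5 windows, occurred in 4.51% of all windows. A match describes these letters and not a bound site.

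The deposited values are normalized counts, that is, reads per gene divided by a size factor for each library. Reads counted on genes ranged from 9853000 to 12229175 in the 5 libraries where they could be recovered. RNA of Gnaq, the gene named by the label, was not lower in the libraries labelled GαqKO (1888.2 to 1959.7 normalized counts) than in WT (1660.2 to 1746.6), so RNA does not check that label and GαqKO stands here for the libraries that carry it, and Gna11 was lower (418.9 to 472.3 against 2123.2 to 2179.9). The groups also differed in 4 Y-linked genes, present in all WT libraries and listed at 0 in all GαqKO libraries. All 10 fibroblast markers examined were detected in every GαqKO library, and all but Thy1 in every WT library. Their summed levels were 84406.1 to 90166.7 normalized counts in WT and 62921.3 to 66195.9 in GαqKO. The groups of libraries did not overlap for any of the 10, nor for 69.6% of all genes tested. Col1a1, Col1a2, Col3a1, Fn1 and Vim were lower in GαqKO, and the other 5 were higher. Col1a1 was at 15324.2 to 17402.2 in WT and 5461.1 to 5951.5 in GαqKO. Thy1 was at 0.0 to 2.1 in WT and 59.0 to 76.5 in GαqKO. Pdgfra was at 17.5 to 21.9 and 2273.9 to 2356.4, and Dcn at 30.1 to 35.5 and 1604.2 to 1710.0. Summed levels of 6 epithelial markers were 515.0 to 540.9 in WT, nearly all Krt14 and Cdh1, and 10.1 to 23.1 in GαqKO, and those of 6 endothelial markers were 12.6 to 23.4 and 18.8 to 26.6. Summed levels of 10 leukocyte markers were 210.7 to 225.4 in WT and 438.5 to 472.9 in GαqKO, where Cd14 was higher (93.6 to 106.5 and 361.9 to 368.1), Cd68 was lower (84.6 to 103.9 and 54.5 to 79.8), and Ptprc, Lyz2 and Adgre1 lay below 10 in every library. The part of these differences in the results on NF-κB genes was not tested, and in bulk RNA fewer cells of a type and less RNA per cell cannot be told apart.

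All 10 members were expressed and tested. In the libraries labelled GαqKO, 5 were higher (Nfkb1, Nfkb2, Relb, Nfkbib, Nfkbie), 4 were lower (Rela, Rel, Nfkbiz, Tnfaip3) and Nfkbia did not pass the threshold (limma on log2(normalized count + 1), Benjamini-Hochberg adjusted p under 0.05 over all genes tested). Of all genes tested, 65.8% passed that threshold, 31.8% higher and 34.1% lower, so 9 of 10 called members has to be read against a background in which most genes were called. Only Tnfaip3 also moved by more than 1 on the log2 scale, as did 10.5% of all genes on the lower side and 10.2% on the higher side. The groups of libraries did not overlap for 8 of the 10 members, against 69.6% of all genes tested. The median log2 fold change of the members was 0.17 and their median absolute change was 0.38, beside -0.01 and 0.39 for all genes. Summed over the members, normalized counts were 8358.1 to 8602.0 in WT and 8450.3 to 8579.9 in GαqKO, which overlapped. The plot of normalized counts by library shows each member on its own axis.

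**Figure D1:**
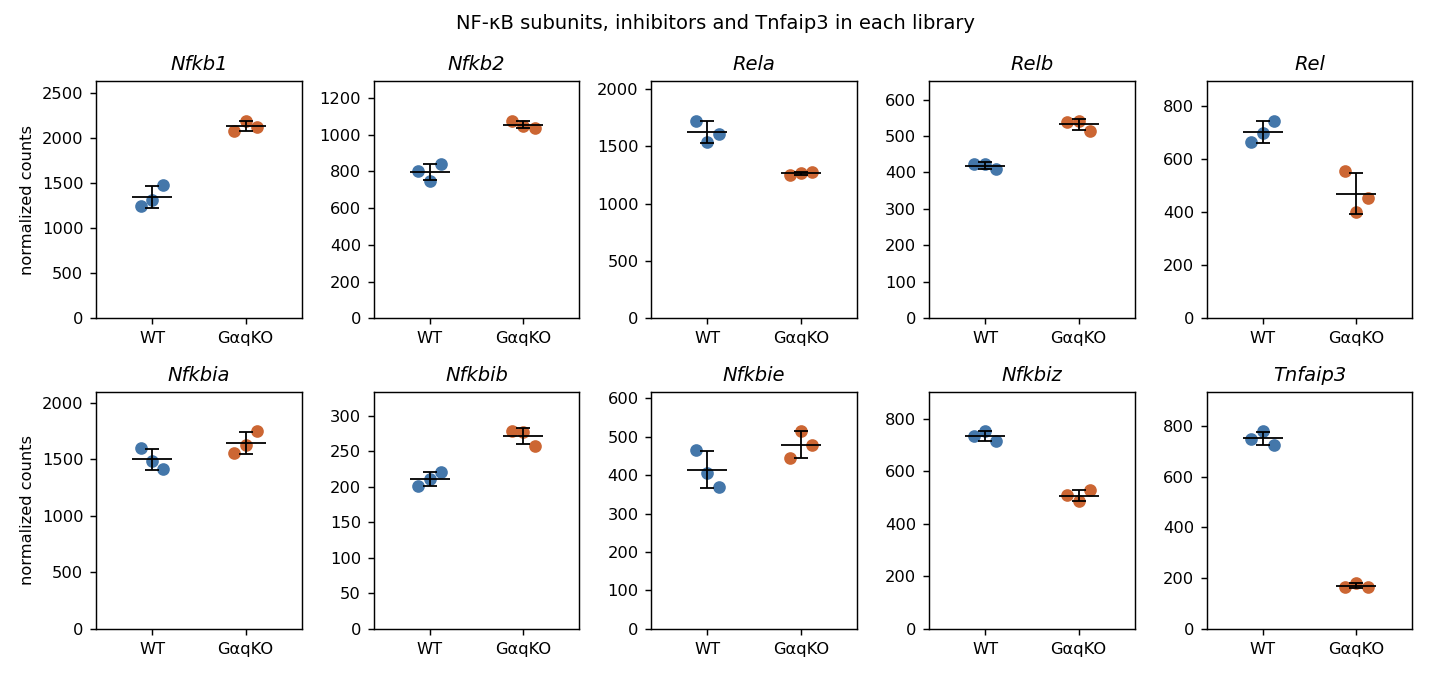
Normalized counts of the 10 members (y axes from 0, a separate scale for each gene) in each of the 3 WT libraries (blue) and the 3 libraries labelled GαqKO (orange), with the mean (long bar) and SD (whiskers). Tnfaip3 falls from 726.7 to 779.1 in WT to 165.2 to 182.7 in GαqKO, while the groups overlap for Nfkbia and Nfkbie.

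Tnfaip3 encodes A20, which edits ubiquitin chains on signalling proteins and shuts down NF-κB activation by TNF and Toll-like receptors (ENSMUSG00000019850.12, GRCm39 chr10:18874201-18891405, minus strand). Its normalized counts were 747.6, 779.1 and 726.7 in WT replicates 1, 2 and 3 and 165.3, 182.7 and 165.2 in the libraries labelled GαqKO. Every GαqKO library lay below every WT library, by far more than the spread within either group. The means were 751.2 ± 26.3 and 171.0 ± 10.1 (SD, n = 3 each), a 4.38-fold lower level (log2 fold change -2.13, SE 0.078, 95% limits -2.30 to -1.96, adjusted p = 2.86e-11). This was the largest change among the members, and its log2 fold change ranked 759 from the lowest of the 14096 genes tested. The median log2 fold change of genes tested on chromosome 10 was -0.28, and with chromosome medians removed Tnfaip3 still stood at -1.85 (adjusted p = 7.6e-11).

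Nfkbia encodes IκBα, the inhibitor that is degraded and rebuilt fastest in the response (ENSMUSG00000021025.9, GRCm39 chr12:55535332-55539432, minus strand). It was at 1596.6, 1487.3 and 1408.7 normalized counts in WT and at 1553.1, 1625.7 and 1746.2 in GαqKO. The groups overlapped, and the difference of 0.13 on the log2 scale did not pass the threshold (SE 0.059, 95% limits 0.01 to 0.26, adjusted p = 0.0607). With chromosome medians removed it was 0.21 and passed (adjusted p = 0.00683). Nfkbia and Tnfaip3 both have core matches close to their starts in the stretches above. The ratio of Nfkbia to Tnfaip3 normalized counts within a library, not adjusted for gene length, was 2.14, 1.91 and 1.94 in WT and 9.4, 8.9 and 10.6 in GαqKO, and these did not overlap.

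Nfkbib encodes IκBβ, an inhibitor that is degraded more slowly (ENSMUSG00000030595.16, GRCm39 chr7:28457486-28466937, minus strand). Its normalized counts were 200.5, 210.8 and 220.9 in WT and 278.0, 276.3 and 257.8 in GαqKO. The groups were separate, with a log2 fold change of 0.36 (SE 0.091, adjusted p = 0.00335). Genes on chromosome 7 had a median of 0.18, and with chromosome medians removed the difference was 0.18 and no longer passed (adjusted p = 0.11).

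Nfkbie, which encodes IκBε, was read at 465.7, 407.0 and 369.5 normalized counts in WT and 446.0, 514.5 and 479.3 in GαqKO (ENSMUSG00000023947.9, GRCm39 chr17:45866585-45874661, plus strand). The highest WT library exceeded the lowest GαqKO library. Its log2 fold change of 0.22 lay just inside the threshold (SE 0.09, 95% limits 0.02 to 0.41, adjusted p = 0.0479). The call was lost without WT replicate 2 (0.21, adjusted p = 0.118), WT replicate 3 (0.14, adjusted p = 0.187), GαqKO replicate 2 (0.17, adjusted p = 0.177) or GαqKO replicate 3 (0.22, adjusted p = 0.104). It was kept without WT replicate 1 (0.30, adjusted p = 0.00944) or GαqKO replicate 1 (0.27, adjusted p = 0.0384).

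Nfkbiz encodes IκBζ, a nuclear protein of the IκB family that helps NF-κB activate a second wave of genes (ENSMUSG00000035356.18, GRCm39 chr16:55631738-55659262, minus strand). Its normalized counts fell from 734.1, 751.9 and 715.5 in WT to 508.0, 486.8 and 527.7 in GαqKO. The groups stood well apart, with means of 733.8 ± 18.2 and 507.5 ± 20.5 (SD, n = 3 each) and a log2 fold change of -0.53 (SE 0.061, adjusted p = 3.65e-06), or -0.35 with chromosome medians removed (adjusted p = 0.000181). Among the IκB family members and Tnfaip3, Nfkbib was thus higher and Nfkbiz and Tnfaip3 lower with no overlap between the groups. The libraries overlapped for Nfkbia and Nfkbie.

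Nfkb1 encodes p105, the precursor of the p50 subunit, which has no activation domain of its own (ENSMUSG00000028163.18, GRCm39 chr3:135290264-135397742, minus strand). It showed the largest rise of the members, from 1242.6, 1312.4 and 1480.0 normalized counts in WT to 2077.1, 2192.2 and 2125.8 in GαqKO. All GαqKO libraries lay above all WT libraries, and the WT libraries were the more spread. The means were 1345.0 ± 122.0 and 2131.7 ± 57.8 (SD, n = 3 each), a 1.59-fold higher level (log2 fold change 0.67, SE 0.06, 95% limits 0.54 to 0.80, adjusted p = 3.33e-07). Genes on chromosome 3 had a median log2 fold change of 0.32, and with chromosome medians removed Nfkb1 was higher by 0.34 (adjusted p = 0.000237).

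Nfkb2 and Relb encode p100, the precursor of p52, and RelB, the usual partners of the non-canonical pathway. Nfkb2 (ENSMUSG00000025225.16, GRCm39 chr19:46292759-46303812, plus strand) was at 803.0, 748.0 and 837.7 normalized counts in WT and 1077.1, 1047.6 and 1038.2 in GαqKO. Relb (ENSMUSG00000002983.18, GRCm39 chr7:19339017-19363425, minus strand) was at 423.9, 423.5 and 409.2 in WT and 539.0, 542.3 and 514.6 in GαqKO. Both were higher in all GαqKO libraries, by a log2 fold change of 0.41 for Nfkb2 (SE 0.057, adjusted p = 2.48e-05) and 0.34 for Relb (SE 0.065, adjusted p = 0.000367). The chromosome medians differed in sign, -0.15 on chromosome 19 and 0.18 on chromosome 7, so with them removed the difference was 0.55 for Nfkb2 and 0.16 for Relb (adjusted p = 0.0457). The ratio of Nfkb2 to Relb normalized counts overlapped between the groups, at 1.77 to 2.05 in WT and 1.93 to 2.02 in GαqKO.

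Rela and Rel encode p65 and c-Rel, which carry activation domains. Rela (ENSMUSG00000024927.9, GRCm39 chr19:5687493-5698161, plus strand) was at 1724.0, 1538.7 and 1609.2 normalized counts in WT and 1251.7, 1270.7 and 1271.9 in GαqKO. Rel (ENSMUSG00000020275.10, GRCm39 chr11:23686847-23721264, minus strand) was at 664.1, 699.4 and 745.1 in WT and 555.0, 401.2 and 453.2 in GαqKO. Both were lower in every GαqKO library, by a log2 fold change of -0.36 for Rela (SE 0.051, adjusted p = 3.15e-05) and -0.59 for Rel (SE 0.099, adjusted p = 0.000125). With chromosome medians removed the difference was -0.21 for Rela (adjusted p = 0.00256) and -0.48 for Rel (adjusted p = 0.000752). Rel was the member that varied most within GαqKO, with a coefficient of variation of 16.6%, and its log2 fold change ran from -0.72 without GαqKO replicate 1 to -0.48 without GαqKO replicate 2. Among the subunits, the genes of the precursor proteins and Relb were thus higher and those of p65 and c-Rel lower, and each direction held under all 17 alternatives run.

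**Figure D2:**
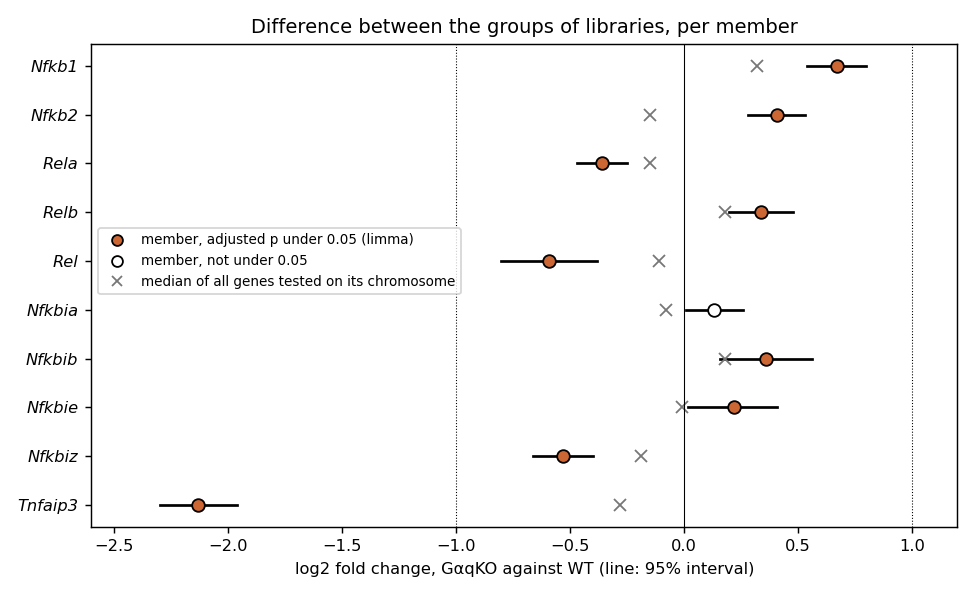
Log2 fold change of each member, GαqKO against WT (x axis, circles, filled where limma's adjusted p was under 0.05, lines for 95% intervals), with crosses at the median of all genes tested on the same chromosome and dotted lines at -1 and 1. Tnfaip3 lies at -2.13, far from its chromosome's -0.28, and all other members lie between -0.59 and 0.67.

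Exons of some members lie within the spans of other genes in GENCODE release M39, where reads could be assigned to either gene or dropped. This applied to 58.5% of the exon bases of Nfkb2, 40.3% of Nfkbib, 25.2% of Nfkbia and 7.3% of Rela, and to none of Nfkb1, Relb, Rel, Nfkbie, Nfkbiz and Tnfaip3. Among the pathway genes described below, it applied to 69.9% of Bcl3, 59.0% of Tnip1, 57.7% of Traf1 and 39.9% of Tbk1, and to smaller shares of some others. Its part in the differences was not tested. Among the deposited genes, 71.6% of 1612 protein-coding genes with all exons inside other genes' spans were listed at 0 in all libraries, against 25.1% of 11540 with no such exon.

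To compare members with each other, normalized counts were divided by the length of the canonical transcript in kilobases. No correction was made for exons inside spans of other genes, of which Nfkb2 had the largest share among the members (58.5%). In WT the order of these levels was Nfkbia at 949 ± 59.8 (SD, n = 3), Rela at 598 ± 34.4, Nfkb1 at 286 ± 25.9, Nfkbiz at 181 ± 4.49, Nfkbie at 168 ± 19.7, Nfkbib at 154 ± 7.45, Relb at 123 ± 2.48, Nfkb2 at 118 ± 6.70, Tnfaip3 at 109 ± 3.81 and Rel at 90.6 ± 5.23. Neighbours overlapped from Nfkbiz to Nfkbib and from Relb to Tnfaip3. In GαqKO Nfkbia again led at 1040.0 ± 61.8, Rela at 466 ± 4.17 and Nfkb1 at 453 ± 12.3 overlapped, and Nfkbib (198 ± 8.18), Nfkbie (195 ± 13.9), Relb (157 ± 4.46), Nfkb2 (156 ± 3.00), Nfkbiz (125 ± 5.06), Rel (60.5 ± 10.1) and Tnfaip3 (24.8 ± 1.46) followed. Nfkbib and Nfkbie overlapped there, as did Relb and Nfkb2. With the length of all annotated exons in place of the canonical transcript, an alternative chosen after the data were seen, Nfkbia and Rela kept the first and second place in both groups, Tnfaip3 was last in both, and Nfkb2 moved up to place 5 in WT and 4 in GαqKO.

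The make-up of the subunit transcripts shifted between Rela and Nfkb1. Of the summed per-kilobase levels of the 5 subunits, Rela held 51.7%, 48.4% and 47.5% in WT and 35.7%, 36.0% and 36.5% in GαqKO. Nfkb1 held 21.5%, 23.8% and 25.2% in WT and 34.2%, 35.8% and 35.2% in GαqKO. Neither share overlapped between the groups, and Rela, first among the subunits in WT, was close to Nfkb1 in GαqKO. The shares of Nfkb2 (9.69% ± 0.243 to 12.1% ± 0.227) and Relb (10.2% ± 0.496 to 12.1% ± 0.277) were higher in GαqKO, and that of Rel was lower (7.45% ± 0.42 to 4.69% ± 0.788; SD, n = 3). The summed level of the 5 subunits was 1171.0 to 1247.5 normalized counts per kilobase in WT and 1283.8 to 1300.3 in GαqKO. The shares depend on the lengths used, and with all annotated exons the mean share of Nfkb1 was 12% in WT and 19.5% in GαqKO and that of Rela 56.7% and 45.4%. The directions were the same, but Rela then stayed above Nfkb1 in GαqKO.

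**Figure D3:**
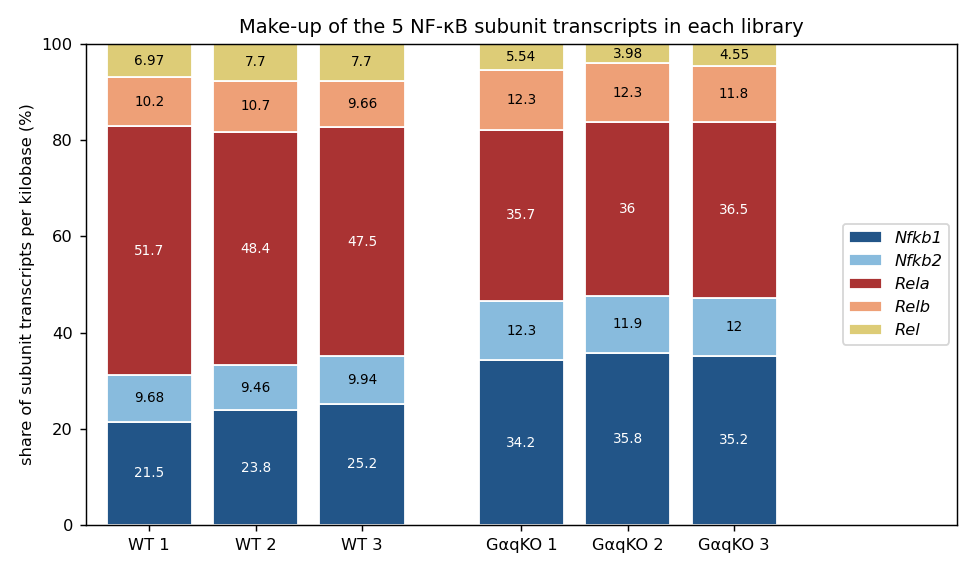
Share of each NF-κB subunit (stacked colours, y axis in percent) in the summed normalized counts per kilobase of canonical transcript of the 5 subunits, for each library (x axis). Rela takes 47.5% to 51.7% in WT and 35.7% to 36.5% in GαqKO, and Nfkb1 21.5% to 25.2% and 34.2% to 35.8%.

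Genes around the members were described from lists by role, 101 genes of which 73 were tested, with 29 higher (39.7%), 31 lower (42.5%) and 13 not called, beside 31.8% and 34.1% of all genes. With chromosome medians removed, 24 of these genes were higher and 29 lower, beside 4341 and 4481 of all genes. The log2 fold changes below are without that removal. Both remaining IκB family genes were lower, Bcl3 at 154.7 to 190.0 normalized counts in WT and 120.2 to 141.1 in GαqKO and Nfkbid, near the detection limit, at 14.6 to 31.3 and 8.1 to 16.1, with groups that overlapped for Nfkbid. Nfkbid passed the filter for testing (at least 10 in at least 3 libraries) only through its WT libraries, which favoured a lower call.

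Of 13 genes of the IKK complex and the kinases upstream of it, all tested, 8 were lower (61.5%), 3 higher (23.1%) and 2 not called. Of all genes, 34.1% were lower and 31.8% higher. The median log2 fold change of this list was -0.33, beside -0.01 for all genes, and none moved by more than 1 on the log2 scale. Genes tested on the chromosomes of the lower genes had medians of -0.35 (chromosome 4), -0.28 (10), -0.15 (19), -0.27 (X), 0.03 (2) and 0.29 (8). Ikbkg, which encodes the regulatory subunit NEMO, was lower by the most, at 1197.7, 1225.9 and 1317.1 normalized counts in WT and 755.9, 730.7 and 630.4 in GαqKO (log2 fold change -0.82, adjusted p = 1.74e-07). The catalytic subunits Chuk (-0.33, adjusted p = 0.00058) and Ikbkb (-0.20, adjusted p = 0.00481) were also lower, while Map3k14, the NIK kinase of the non-canonical pathway, read 430.3 to 444.8 in WT and 401.9 to 439.4 in GαqKO and was not called (-0.07, adjusted p = 0.419). Log2 fold changes were also negative for Tbk1 (-0.78), an IKK-related kinase, and its adaptor Tank (-0.60), and for Map3k7 (-0.58), Tab2 (-0.61) and Tab3 (-0.45), which encode TAK1, the kinase that activates IKK, and its binding partners. Tab1, another partner of TAK1, was higher, at 714.0 to 749.1 in WT and 959.7 to 1005.0 in GαqKO (0.42, adjusted p = 9.04e-06).

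Among the receptors, 12 of 16 were tested, with 4 higher (33.3%), 4 lower (33.3%) and 4 not called, beside 31.8% and 34.1% of all genes. Of the lower genes, Tlr1 passed the filter for testing only through its WT libraries. The TNF receptors differed in direction, as Tnfrsf1a was higher (1100.3 to 1138.5 normalized counts in WT, 1243.3 to 1370.1 in GαqKO) and Tnfrsf1b lower (487.6 to 511.9 and 245.1 to 283.0, log2 fold change -0.94). Ltbr, the lymphotoxin β receptor that feeds the non-canonical pathway, was higher (602.3 to 661.6 and 1033.9 to 1114.6, log2 fold change 0.80), as were Il1r1 (0.58) and Tlr2 (0.36), and Tlr4 was lower (-0.22, adjusted p = 0.0425). Genes tested on chromosome 3, which holds Tlr2, had a median of 0.32, and those on chromosome 4, which holds Tlr4, -0.35. Of 11 ligand genes, 1 had enough counts to be tested and 4 were listed at 0 in all libraries. All exons of Il1b and Tnfsf12, listed at 0, and of Il1a lie within spans of other genes. For them a low level and dropped reads cannot be told apart, while Tnf and Cd40lg were listed at 0 with no such exon. The tested ligand, Il33, was at 76.7 to 83.5 in WT and 19.7 to 38.2 in GαqKO.

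Among 16 adaptors and ubiquitin ligases tested of 17, 7 were higher (43.8%), 6 lower (37.5%) and 3 not called, beside 31.8% and 34.1% of all genes. Myd88 was listed at 0 in all libraries. Of its exon bases 44.9% lie within the span of another gene, so a low level and dropped reads cannot be told apart. Birc3, which encodes the ubiquitin ligase cIAP2, was 5.75-fold higher, at 70.0, 50.5 and 48.9 normalized counts in WT and 312.7, 331.8 and 330.3 in GαqKO (log2 fold change 2.52, adjusted p = 3.4e-09). Traf1 (1.51) and Traf5 (1.15) were higher on the log2 scale and Traf6, the ligase downstream of the IL-1 and Toll-like receptors, was lower (-1.08, adjusted p = 1.1e-08). Birc3 and Traf1, like Tnfaip3, are known NF-κB targets, and their difference was opposite in sign to that of Tnfaip3.

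Of the other negative regulators, 10 of 12 were tested, with 3 higher (30.0%), 4 lower (40.0%) and 3 not called, beside 31.8% and 34.1% of all genes. Of the lower genes, Sigirr passed the filter for testing only through its WT libraries. Cyld, a deubiquitinase that like A20 limits IKK activation, was at 1533.9, 1688.3 and 1648.9 normalized counts in WT and 1865.8, 1838.4 and 1850.9 in GαqKO (log2 fold change 0.19, adjusted p = 0.00326), and Otud7b, another deubiquitinase, was higher by 0.74. Genes tested on chromosome 8, which holds Cyld, had a larger median of 0.29, and those on chromosome 3, which holds Otud7b, had 0.32. The A20-binding proteins Tnip1 (-0.48) and Tnip2 (-0.77) were lower, as was Zc3h12a (-0.75), which encodes the RNase Regnase-1.

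Of 30 known target genes, 19 were tested, with 12 higher (63.2%), 6 lower (31.6%) and 1 not called, beside 31.8% and 34.1% of all genes. Of those called, 8 rose and 4 fell by more than 1 on the log2 scale, as did 10.2% and 10.5% of all genes. The median log2 fold change was 0.44, beside -0.01 for all genes. Cxcl5, Ccl5, Mmp9 and C3 passed the filter for testing only through their GαqKO libraries, and Icam1 and Mmp13 only through their WT libraries. The filter thus favoured the direction of these calls, which the counts, shares and median above include. The chemokines differed in direction, Cxcl5 being at 1.0 to 2.1 normalized counts in WT and 533.4 to 567.0 in GαqKO, and Ccl7 at 284.0 to 377.9 in WT and 16.2 to 27.2 in GαqKO. Mmp9, a matrix protease, was at 5.2 to 18.3 in WT and 214.5 to 245.1 in GαqKO, and C3, the central complement component, at 9.7 to 18.8 in WT and 209.5 to 263.9 in GαqKO. Ccl2 and Cxcl10 were listed at 0 in all libraries. All exons of Cxcl10 lie within the span of another gene, so a low level and dropped reads cannot be told apart for it. Ccl2 had no such exon.

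**Figure D4:**
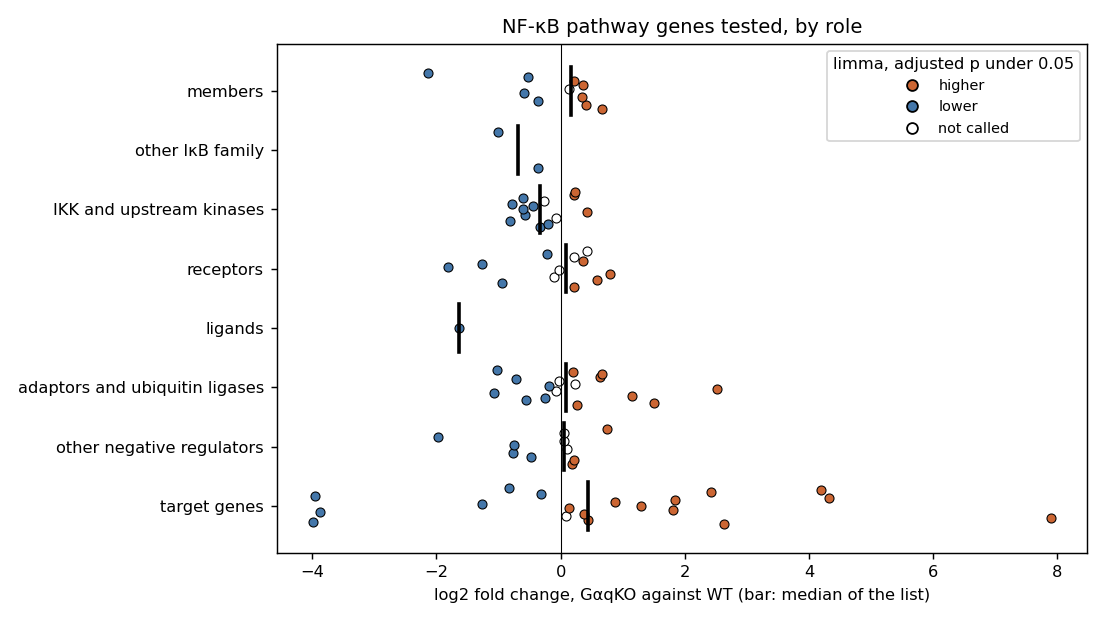
Log2 fold change, GαqKO against WT (x axis), of every tested NF-κB pathway gene (points, coloured by limma's call) grouped by role (rows), with the median of each list as a bar. Members run from -2.13 to 0.67, the kinase list has a median of -0.33, and target genes spread from -3.98 to 7.89.

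The genes whose profiles over the 6 libraries were most like those of the extreme members were found by the Euclidean distance between centred log2 profiles. For Nfkb1 they were Sipa1l2 (0.0713), Ralgapb (0.0995) and Arrb1 (0.102), with log2 fold changes of 0.62 to 0.69. For Tnfaip3 they were Morc4 (0.135), Nherf1 (0.143) and Phka1 (0.183), with log2 fold changes of -2.16 to -2.06. These 6 genes follow from the difference between the groups and from the spread within them, and none of them was on the pathway lists.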

How the data were processed

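Poly-A selected RNA of MEFs was sequenced in 3 libraries labelled WT and 3 labelled GαqKO, which the study describes as biological replicates. The authors aligned paired-end reads to GRCm39 with Rbowtie2, counted them with featureCounts (named in the submitters' processing notes) on GENCODE release M32, and deposited the counts after scaling by 1 size factor for each library, a signal and not raw counts. Versions, strand setting and filters are not given in the sources used here. Symbols and coordinates came from GENCODE release M39, which matched 56310 of 56953 identifiers (98.9%), and start windows from RefSeq on GRCm38.p6. The 10 members and all lists were chosen with earlier results of these data known.

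limma 3.58.1 (R 4.3.3) was fitted to log2(normalized count + 1) of all 6 libraries, using a trended prior spread and Benjamini-Hochberg adjustment, over the 14096 genes with at least 10 in at least 3 libraries (in as many libraries as the smaller group holds when 1 was left out, a change made after results with 3 had been seen, since 3 drops genes expressed in the reduced group alone). This scale understates changes of low genes. Whole reads were recovered in 5 libraries, where 100.0% of the values above 0 fell within 0.01 of a multiple of the smallest step. edgeR 4.0.16 and DESeq2 1.42.0 were run on those reads as alternatives, without GαqKO replicate 3, whose reads were not recovered. The other alternatives were the scaling, filter, pseudocount (0.5 and 5), prior spread, a replicate block, chromosome medians removed and each library left out. The limma fit with its reported settings, edgeR and DESeq2 were tested on simulated data, in which far fewer genes differed than were called here. The other alternatives were not tested in this way. Genes named outside the members were Gnaq, Gna11, the main kinases and receptors, up to 4 genes per list with the largest changes (adjusted p under 0.05, mean of at least 50, groups apart), and the 3 profiles most like those of the extreme members, without Gm and Rik symbols. Outside this rule, the marker genes, Tab1, Tab3, Tlr1, Sigirr, the ligands other than Il33, Myd88, Ccl2, Ccl5, Cxcl10, Icam1 and Mmp13 were named after their values were seen. Depth did not leave any member near the limit of detection, since all lay at 165.2 normalized counts or more in every library. Replicates differed by more than counting noise (chi-square per gene 2.44 to 5.50 in the pairs with reads), so none was counted as a duplicate.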

Additional observations from a re-analysis of the deposited data

How the results depend on the processing

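Under 17 alternatives no member changed direction, and Nfkb1, Nfkb2, Rela, Relb, Rel, Nfkbiz and Tnfaip3 kept their call in all of them. Nfkbib lost its call with chromosome medians removed (0.18, adjusted p = 0.11). Nfkbie was called in 7 of 17 (adjusted p from 0.00944 to 0.225) and Nfkbia in 5 of 17 (0.00683 to 0.409). Members called ran from 4 to 6 higher with 4 lower when 1 library was left out. With a filter of 10 in all 6 libraries, by which genes low in 1 group drop out, 12054 genes were tested, with 7 pathway genes higher and 6 lower past the fold (11 and 11 with the reported filter), and 831 and 765 of all genes (1432 and 1486 with the reported filter). The replicate numbers shared by the labels did not pair the libraries (correlations of same-numbered deviations -0.05, -0.15 and -0.06). With a replicate block 4 members were higher and 4 lower, Nfkbie being lost (0.22, adjusted p = 0.0698), and 4324 genes were higher and 4638 lower. With 1 line per genotype, line and genotype cannot be told apart.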
